A study of Mus musculus with 16 samples.

Results

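The genes described here are 39 enzymes and transporters that carry glucose carbon into the cell, through glycolysis and the pentose phosphate pathway, and on to lactate or to the mitochondrial pyruvate dehydrogenase complex. They were listed by name, as members of these pathways, and 38 of the 39 were found among the 13652 genes of the count files. Ldhb, the heart-type lactate dehydrogenase subunit, is not analysed here. Every one of the 38 had reads in all 16 libraries and none was removed by the filter on low counts.

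The libraries come from AML246, a mouse acute myeloid leukaemia line kept in medium with serum and interleukin-3. Doxycycline restores PU.1 in it, a transcription factor of myeloid cells whose gene is Spi1. The labels name PU.1 restoration and knockdown but give neither the construct nor the genotype of the line, so all groups share whatever alleles AML246 carries. Doxycycline was given at 0.1 ug/mL from day 0 and taken away at day 12. There were 8 groups of 2 libraries. They are the untreated start (day 0), total cells at days 4, 8 and 12 of doxycycline, the Cd11b-high part of the day 12 cells, and total cells taken 4, 8 and 12 days off the drug. All were viable cells taken by flow sorting. Whether replicate A and replicate B of a group are separate cultures is not stated, so p-values measure only the spread between these libraries, which may be technical. Untreated cells of the later days are not analysed here, so time in culture and doxycycline cannot be told apart.

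Glycolysis splits glucose into pyruvate in the cytosol. Glucose enters through facilitative transporters, is phosphorylated by hexokinases and passes the committing step at phosphofructokinase, whose activity is raised by the fructose 2,6-bisphosphate that the PFKFB enzymes make and remove. Pyruvate is then reduced to lactate by lactate dehydrogenase and exported through monocarboxylate transporters, or enters mitochondria through the MPC1 and MPC2 carrier and is oxidised by pyruvate dehydrogenase, which the PDK kinases switch off. A branch at glucose-6-phosphate, the pentose phosphate pathway, yields NADPH and ribose. NADPH feeds the oxidase with which phagocytes make superoxide, many tumour cells make lactate even with oxygen present, and many genes of the lower pathway are known targets of the hypoxia-inducible factors and of MYC.

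Promoter sequences are shown for 5 members whose libraries moved apart on withdrawal, 4 that rose and 1 that fell, because these genes carry the main contrast of the results below and hold the letters searched. Each line gives the 250 bases directly before a RefSeq transcript start (build GRCm38.p6, 5′ to 3′ on the gene's strand), and capitals mark ACGTG on either strand, the core letters of the hypoxia response element. Ldha was read at chr7:46845554-46845803 (plus strand), Pgk1 at chrX:106186850-106187099 (plus), Slc16a3 at chr11:120948817-120949066 (plus), Slc2a1 at chr4:119108495-119108744 (plus) and Hk3 at chr13:55021386-55021635 (minus).
Ldha: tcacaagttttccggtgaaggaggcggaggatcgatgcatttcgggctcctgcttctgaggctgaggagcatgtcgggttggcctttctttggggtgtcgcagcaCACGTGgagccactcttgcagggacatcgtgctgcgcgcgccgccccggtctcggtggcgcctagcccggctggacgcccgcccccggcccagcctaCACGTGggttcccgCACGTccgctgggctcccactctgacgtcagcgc
Pgk1: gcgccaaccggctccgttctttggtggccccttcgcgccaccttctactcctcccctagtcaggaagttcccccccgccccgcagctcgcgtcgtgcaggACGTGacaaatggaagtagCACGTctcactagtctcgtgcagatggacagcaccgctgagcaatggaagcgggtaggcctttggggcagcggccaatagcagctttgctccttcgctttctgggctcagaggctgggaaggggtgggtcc
Slc16a3: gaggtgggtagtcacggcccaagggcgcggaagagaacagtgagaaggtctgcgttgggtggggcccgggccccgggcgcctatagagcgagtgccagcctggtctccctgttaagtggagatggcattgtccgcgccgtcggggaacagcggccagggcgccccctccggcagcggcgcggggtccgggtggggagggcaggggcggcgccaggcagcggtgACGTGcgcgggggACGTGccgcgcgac
Slc2a1: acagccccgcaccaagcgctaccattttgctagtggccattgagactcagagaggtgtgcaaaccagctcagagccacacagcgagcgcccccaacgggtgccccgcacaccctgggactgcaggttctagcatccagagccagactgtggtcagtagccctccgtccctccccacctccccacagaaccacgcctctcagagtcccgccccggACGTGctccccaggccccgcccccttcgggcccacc
Hk3: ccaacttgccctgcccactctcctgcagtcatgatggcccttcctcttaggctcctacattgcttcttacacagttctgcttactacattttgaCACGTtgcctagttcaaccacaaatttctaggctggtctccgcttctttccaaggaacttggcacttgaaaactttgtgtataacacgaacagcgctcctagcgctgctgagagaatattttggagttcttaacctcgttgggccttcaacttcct
The Ldha stretch holds 5 matches, since each of its 2 CACGTG palindromes, a site type that MYC and MAX can bind, counts once on either strand. Pgk1 and Slc16a3 hold 2 matches each, and Slc2a1 and Hk3 hold 1 each. Over windows running 250 bases before to 50 after the start, ACGTG was found in 24 of the 55 windows of the members (43.6%) and in 19.6% of all 32851 windows searched. The 24 member windows with ACGTG belong to 20 of the 37 members that have a window, and Slc2a3 has none in the table. The 5′-GAGGAAGT-3′ core of many PU.1 sites was found in 0 of the 55 windows and in 3.20% of all. Such matches describe letters in these windows and show neither binding nor its absence.

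Total counts were 12962801 to 26509803 per library. Spi1 followed the labels, at 66.3 and 56.8 CPM (read counts relative to the TMM-scaled library size) at day 0, 226 and 219 at day 12 and 54.8 and 37.2 after 12 days off. Itgam, which encodes Cd11b, stood at 1.41 and 1.77 CPM at day 0, 719 and 669.5 in total cells at day 12, 884 and 940.4 in Cd11b-high cells and 1.08 and 1.51 after 12 days off. Genes of the mitochondrial genome had 7.36% and 6.35% of all reads in the day 0 pair and between 2.01% and 3.59% in every other library. Markers of mature myeloid cells changed along the course, and not all in one way. All 10 neutrophil markers were called higher at day 12 than at day 0 (30.0% of all genes) and lower at 12 days off than at day 12 (32.4%). Together the 10 markers summed to between 36.2 and 45.7 CPM at day 0, between 2293 and 2918 at day 4, between 756 and 771 at day 12 and between 38.2 and 42.9 after 12 days off. Of 6 macrophage and monocyte markers 4 were higher and 1 was lower at day 12 than at day 0 (30.0% and 33.4% of all genes). Their sum was between 84.2 and 99.2 CPM at day 0, between 1119 and 1294 at day 4, between 417 and 452 at day 12 and between 50.3 and 54 after 12 days off. Of 10 eosinophil markers 2 were higher and 6 lower at day 4 than at day 0 (28.2% and 31.0% of all genes), while 9 were higher and 0 lower at day 12. Eosinophil sums were between 2095 and 5226 CPM at day 0, between 219 and 259.5 at day 4, between 8587 and 9581 at day 12 and between 4273 and 4353 after 12 days off. Of 6 basophil and mast cell markers 0 were higher and 5 lower at day 4 than at day 0, and 3 higher and 2 lower at day 12. They summed to between 2250 and 2730 CPM at day 0, 599 and 698 at day 4, and 2048 and 2061 at day 12. After 12 days off the sum was between 2169 and 2666. No marker of these lists was under 1 CPM in all libraries, and the part of these shifts in the values of the pathway genes was not tested.

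Summed over the 38 genes, the share of the reads was larger after withdrawal than at any earlier time. Genes with many reads weigh most in this sum, and not every gene rose after withdrawal, as given below. The 38 genes together held 0.690% to 0.732% of the counts at day 0, 0.922% to 0.932% at day 12, and 1.65% to 1.95% after 12 days off. In the edgeR quasi-likelihood test, 36 of the 38 differed among the 8 groups, where 83.8% of all genes did, and the other two were Mpc1 and Pdha1. In bulk RNA a change in the number of cells of one kind and a change in RNA per cell cannot be told apart.

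**Figure D1:**
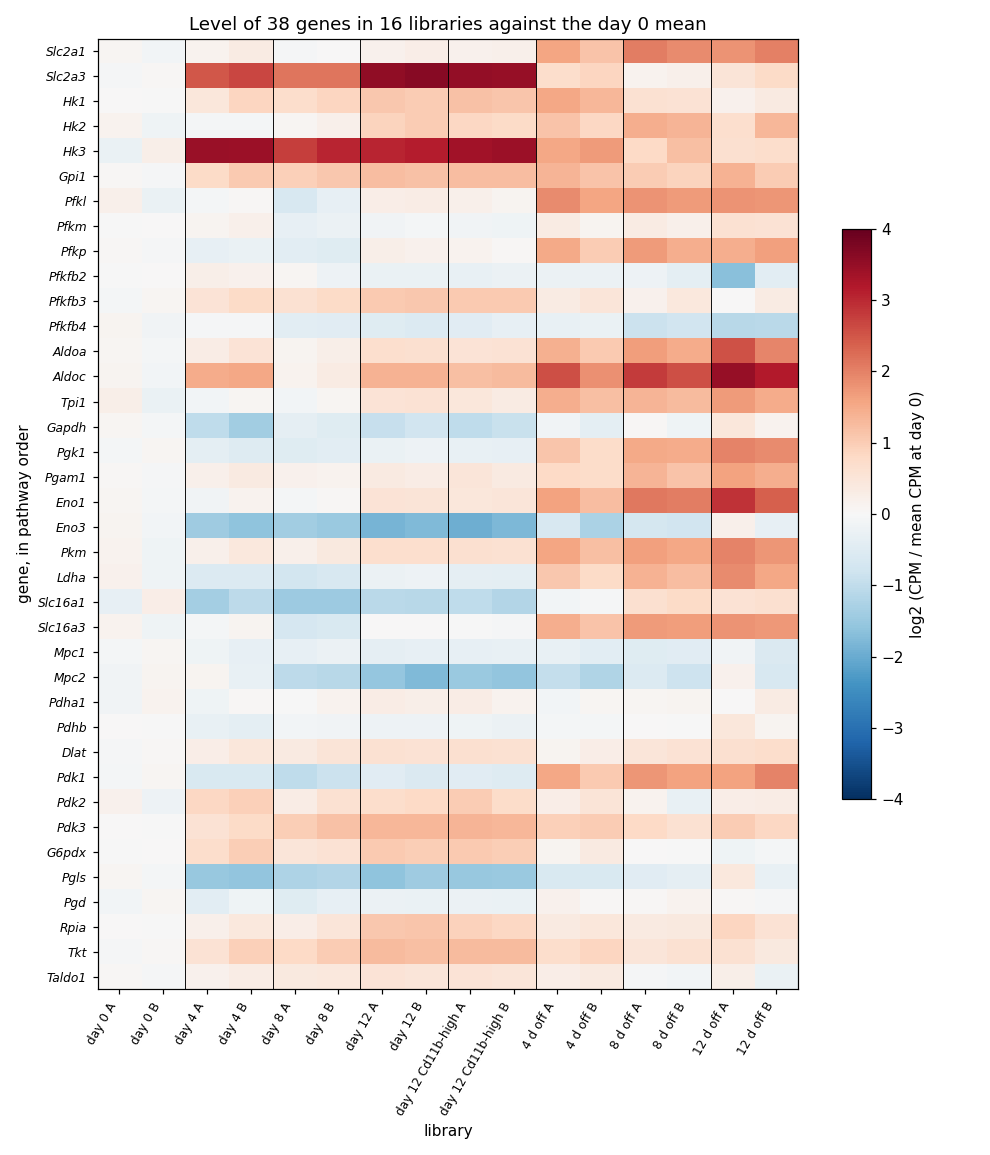
Log2 of the CPM of each of the 38 genes (rows, in pathway order) in each of the 16 libraries (columns), relative to the mean of the 2 day 0 libraries; red is higher and blue lower. Slc2a3 and Hk3 are dark red in the libraries on doxycycline, and Slc2a1, Pfkl, Aldoa, Aldoc, Pgk1, Eno1, Ldha, Slc16a3 and Pdk1 are red in the libraries after withdrawal.

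At day 12 on doxycycline the largest rises were those of Slc2a3, a glucose transporter, and Hk3, a hexokinase, and 4 of the 6 pentose phosphate genes rose too. At an adjusted p under 0.05 (Benjamini-Hochberg over all genes), 19 of the 38 genes were called higher than at day 0 and 8 lower. Of all genes 30.0% were called higher and 33.4% lower. After a log2 fold, ± gives an approximate standard error, the size of the fold divided by the square root of the test's F. The median log2 fold was 0.31 for the members and -0.07 for all genes. Scaled by library size alone, which shifted the median of all genes by -0.13, the members gave 18 higher and 13 lower. A fold of at least 2 was reached by 10 called higher (12.6% of all genes) and 4 called lower (15.0%): Slc2a3, Hk1, Hk3, Gpi1, Pfkfb3, Aldoc, Pdk3, G6pdx, Rpia and Tkt rose, and Eno3, Slc16a1, Mpc2 and Pgls fell.

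After withdrawal most genes of the trunk of glycolysis and of the way to lactate were higher. Between day 12 and 12 days off, 20 of the 38 genes rose and 11 fell, against 32.9% and 32.4% of all genes, with a median log2 fold of 0.60 for the members and 0.00 for all genes. A fold of at least 2 was reached by 18 that rose (15.0% of all genes) and 3 that fell (13.7%), namely Slc2a3, Hk3 and G6pdx. Against day 0 the cells 12 days off had 24 genes higher and 2 lower, against 21.6% and 22.0% of all genes, with a median of 0.65 for the members. At least 2-fold higher than day 0 were 15 (4.89% of all genes) and 1 was at least 2-fold lower (7.98%), Pfkfb4. The comparisons share the day 0, day 12 or 12 days off libraries in pairs and are not independent of each other. The 2 genes lower than day 0 were Pfkfb2 and Pfkfb4. With replicate A of 12 days off left out, more of the 38 genes were lower than day 0, and more of all genes were called.

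**Figure D2:**
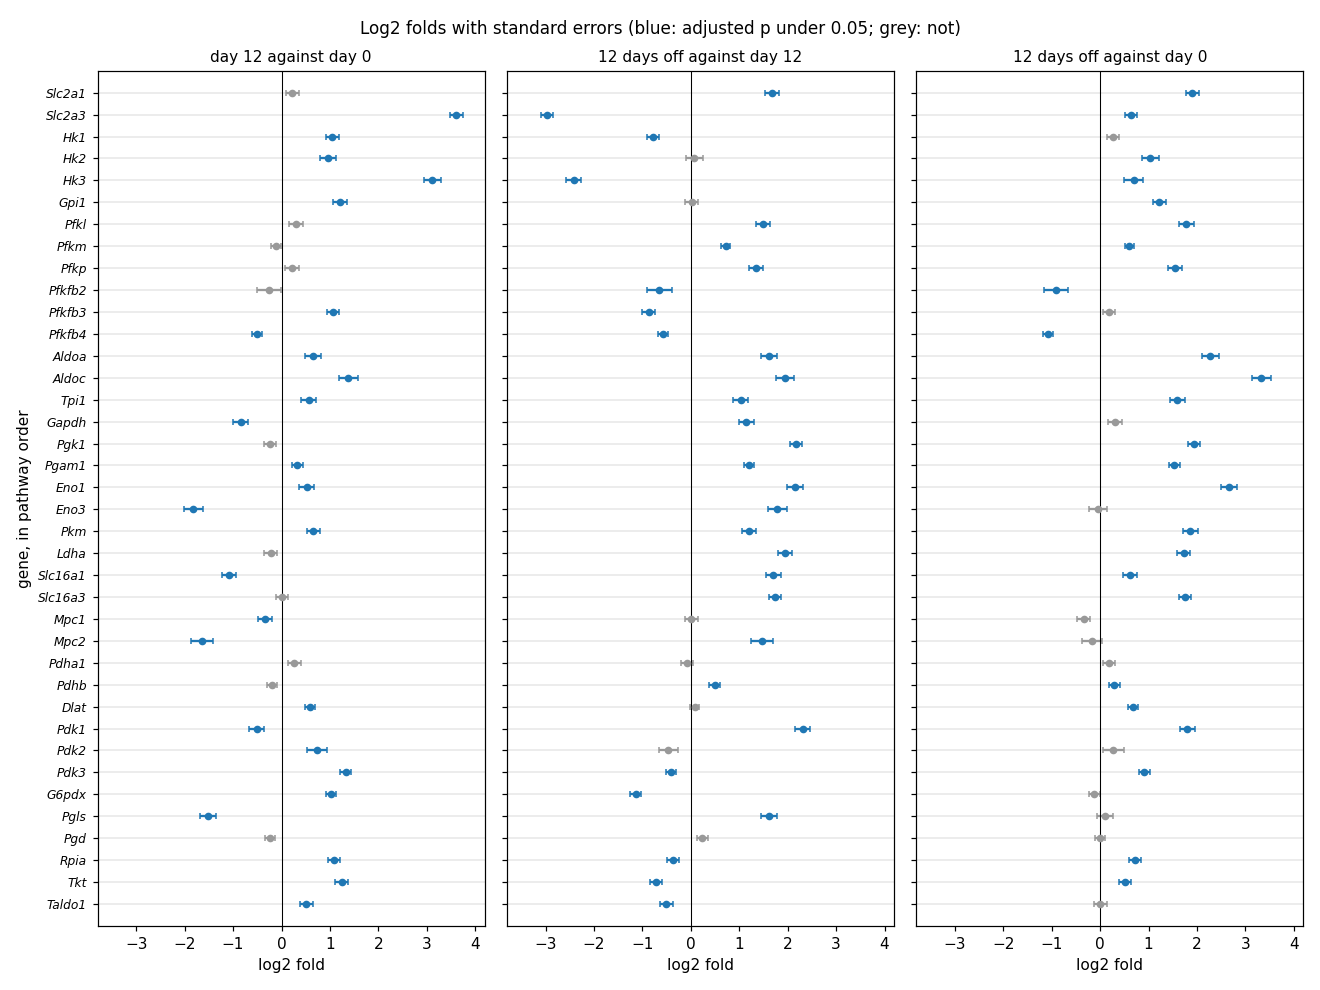
Log2 folds of the 38 genes from the edgeR fit, in 3 comparisons, with approximate standard errors as horizontal bars. Blue points passed the test and grey ones did not. In the left panel Slc2a3 and Hk3 stand furthest to the right at 3.61 and 3.11, in the middle panel both lie furthest to the left, and in the right panel Aldoc is highest at 3.33.

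The 2 glucose transporters peaked at different times. Slc2a3 encodes GLUT3, a transporter of high affinity found in neurons and white blood cells. Its libraries held 6.25 and 6.79 CPM at day 0, 36.4 and 41.2 at day 4, 29 and 28.5 at day 8, 77 and 81.8 at day 12, 10.7 and 11.9 at 4 days off, 7.20 and 7.5 at 8 days off and 9.23 and 11 at 12 days off. The 6 total-cell libraries on doxycycline all lay above the 8 without it, by a factor of 12.2 at day 12 against day 0 (edgeR log2 fold 3.61 ± 0.13, adjusted p = 3.2e-11). After 12 days off it was 7.84-fold lower than at day 12 (log2 fold -2.97 ± 0.12) and still above day 0 (edgeR log2 fold 0.64 ± 0.13, adjusted p = 0.0014).

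Slc2a1, which encodes GLUT1, the transporter of most dividing cells, had its rise after withdrawal. It stood at 88 and 77 CPM at day 0 and 93.2 and 99.6 at day 12 (edgeR log2 fold 0.22 ± 0.14, adjusted p = 0.18), and reached 248 and 181 CPM at 4 days off, 344 and 308 at 8 and 286 and 333 at 12 days off. Every library after withdrawal was above every library before it, and the 12-day value was 3.21-fold above day 12 and 3.75-fold above day 0 (edgeR log2 fold 1.91 ± 0.14, adjusted p = 2.5e-07). Counted per kilobase, Slc2a3 made up 4.42% and 5.42% of the reads of the pair at day 0, 34.9% and 34.8% at day 12 and 2.05% and 2.10% after 12 days off.

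Hexokinases phosphorylate glucose and hold it in the cell, and the 3 genes moved differently. Hk3, the isoform of granulocytes and monocytes and a known PU.1 target, rose from 3.21 and 4.50 CPM at day 0 to 42.6 and 41.2 at day 4, and stood at 26.5 and 31.6 at day 8 and 31.9 and 34 at day 12. It was 8.66-fold higher at day 12 than at day 0 (edgeR log2 fold 3.11 ± 0.18, adjusted p = 2.8e-09). The withdrawal libraries held 11.2 and 12.5 CPM at 4 days, 6.68 and 8.87 at 8 and 5.99 and 6.29 at 12 days, below every library on doxycycline. At 12 days it was 5.35-fold under day 12 (log2 fold -2.42 ± 0.16) and above day 0 (edgeR log2 fold 0.69 ± 0.19, adjusted p = 0.0084), a call that was lost without day 0 replicate A (log2 fold 0.45, adjusted p = 0.14). The summed neutrophil and the summed macrophage and monocyte markers given above were likewise higher on doxycycline and lower after it, and their part in the Hk3 values was not tested. Hk1, the isoform of most tissues, went from 208 and 204 to 434 and 416 CPM (edgeR log2 fold 1.05 ± 0.13, adjusted p = 5.5e-06), was highest at 4 days off with 596 and 520.3, and came to 232 and 264 at 12 days off. Hk2, an inducible isoform bound to mitochondria, held 105 and 85.3 CPM at day 0, 89.4 and 90.1 at day 4, 176 and 194 at day 12 and 151 and 238 after 12 days off. The last pair spread widely, and both lay above day 0 (edgeR log2 fold 1.03 ± 0.17, adjusted p = 0.00026). Per kilobase Hk1 held most of the hexokinase reads in every library, with 71.3% at day 0, 68.4% at day 12 and 60.1% after 12 days off, while Hk2 held 26.9%, 24.3% and 37.9%.

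Gpi1, glucose-6-phosphate isomerase, rose on doxycycline and did not come back. It held 698 and 645 CPM at day 0, 1149 and 1378 at day 4, 1593 and 1507 at day 12 and 1768 and 1365 after 12 days off. Both later pairs lay above both day 0 libraries, by 2.31-fold at day 12 and 2.33-fold at 12 days off (edgeR log2 fold 1.22 ± 0.13, adjusted p = 6.6e-06), and the values of 12 days off lay on both sides of those of day 12 (edgeR log2 fold 0.01 ± 0.13, adjusted p = 0.93).

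**Figure D3:**
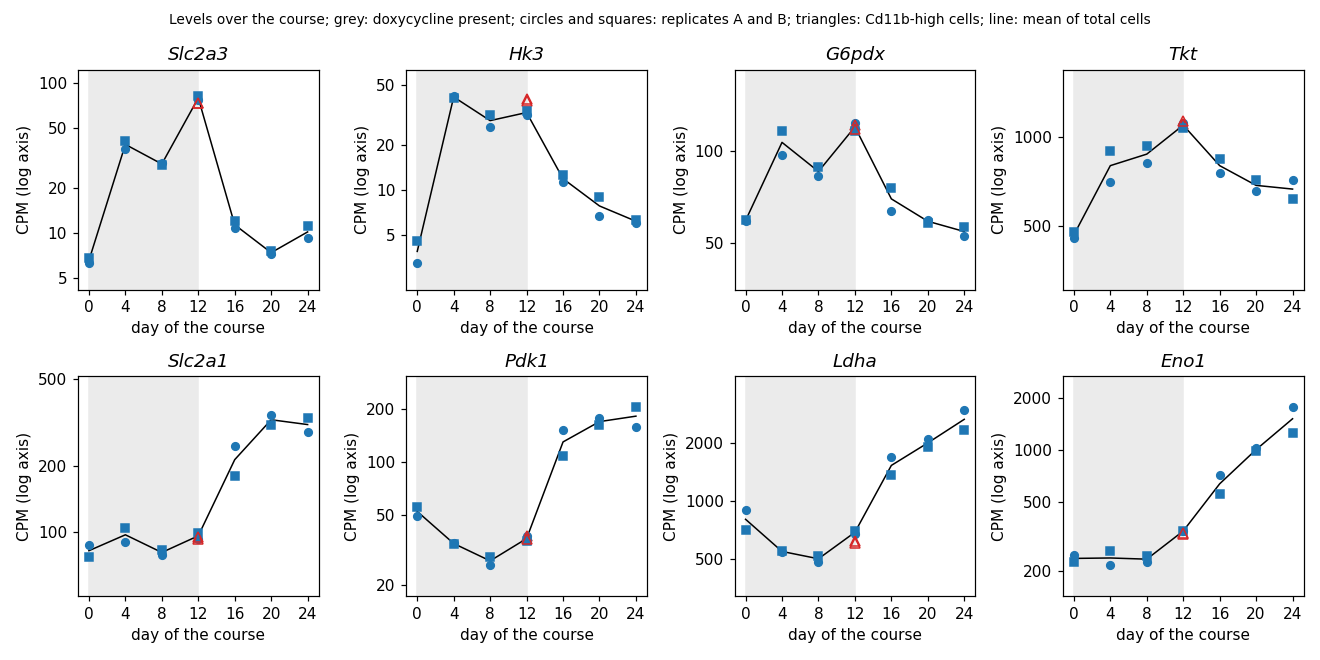
CPM (log axis) of 8 genes against the day of the course, where day 12 is the day of withdrawal and grey marks doxycycline; circles and squares are replicates A and B of total cells, open triangles the Cd11b-high cells, and lines join the means. The 4 genes of the upper row peak on doxycycline and the 4 of the lower row peak after withdrawal.

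Phosphofructokinase commits sugar to glycolysis, and its subunit genes were highest after withdrawal. Pfkl, the liver-type subunit, held 132 and 95.7 CPM at day 0, 72.7 and 90.2 at day 8, 138 and 141 at day 12 and 398 and 388 after 12 days off. The last pair was 2.81-fold above day 12 and 3.44-fold above day 0 (edgeR log2 fold 1.78 ± 0.15, adjusted p = 6.4e-07), and 421 and 340.2 CPM were already there at 4 days off. Pfkp, the platelet-type subunit, held 55.4 and 51.8 CPM at day 0, 63.3 and 60.9 at day 12 and 147 and 168 after 12 days off, with no overlap of the last pair with either of the others (edgeR log2 fold 1.55 ± 0.14, adjusted p = 1.5e-06). Pfkm, the muscle-type subunit, changed by less: its means were 56.6, 52.4 and 86.2 CPM (edgeR log2 fold 0.61 ± 0.10, adjusted p = 0.00019). Per kilobase Pfkl made up 52.5% and 44.7% of the 3 subunits at day 0 and 62.1% and 59.8% after 12 days off, and Pfkm went from 29.9% to 16.3%.

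The PFKFB genes set the level of fructose 2,6-bisphosphate, and they did not follow phosphofructokinase. Pfkfb3, the isoform whose kinase activity far outweighs its phosphatase, rose from 36 and 40 CPM at day 0 to 78.2 and 80 at day 12 (edgeR log2 fold 1.06 ± 0.13, adjusted p = 4.6e-06), and stood at 38.8 and 47.5 after 12 days off, close to its start in level (edgeR log2 fold 0.19 ± 0.13, adjusted p = 0.26). Pfkfb4 held 107 and 90.2 CPM at day 0, 70.6 and 67.9 at day 12, 80.7 and 81.2 at 4 days off, 54.8 and 57.5 at 8 days off and 46.1 and 47.2 at 12 days off. Both libraries of 4 days off lay above both of day 12, which did not pass the test (edgeR log2 fold 0.23 ± 0.10, adjusted p = 0.084) but did with library size alone (adjusted p = 0.012) and with the length trend taken out (adjusted p = 0.014). It was the one member at least 2-fold under day 0 at the end (edgeR log2 fold -1.08 ± 0.10, adjusted p = 1.4e-06). In other cells Pfkfb4 is known as a hypoxia-induced gene. Pfkfb2 held 22.7 and 23.5 CPM at day 0, 19.3 and 19.3 at day 12 and 7.27 and 17.2 after 12 days off. Its range was 17.2 to 27.2 CPM in 15 libraries and 7.27 in replicate A of 12 days off. It is a long gene, of 9621 bases. Genes of 4000 bases and over had a median log2 difference of -0.39 for replicate A minus B of 12 days off. For 12 days off minus day 12 their median was also -0.39. In that comparison Pfkfb2 ran from -0.66 to -0.15 over the other scalings and the length correction. It was lower at 12 days off than at day 0 (edgeR log2 fold -0.91 ± 0.25, adjusted p = 0.0099), and its lower value than at day 12 passed the test (edgeR log2 fold -0.65 ± 0.25, adjusted p = 0.034) but not without that replicate A (log2 fold -0.16, adjusted p = 0.30) nor without either day 12 library (adjusted p = 0.094 and 0.096).

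Both aldolase genes rose after withdrawal. Aldolase splits fructose 1,6-bisphosphate into a pair of 3-carbon sugars. Aldoa, the main isoform, held 593 and 526 CPM at day 0, 895 and 868 at day 12, 1510.2 and 1168 at 4 days off and 3238 and 2175 at 12 days off. The 12-day libraries differed from each other by more than the 2 libraries of any other group, and both lay above all others, 4.84-fold over day 0 on average (edgeR log2 fold 2.27 ± 0.17, adjusted p = 2.8e-07). Aldoc, best known from brain, had the largest fold of the 38 genes between day 0 and 12 days off, from 25 and 21.4 to 259.5 and 209 CPM, or 10.1-fold (edgeR log2 fold 3.33 ± 0.20, adjusted p = 5.4e-08). Its course on doxycycline was uneven, with 64.8 and 68 CPM at day 4, 25.8 and 29.3 at day 8 and 60.6 and 60.4 at day 12. Both pairs around day 8 lay above it, and the day 8 pair lay just above day 0. Per kilobase Aldoc stayed the minor gene, with 4.25% of the pair at day 0 and 8.62% after 12 days off.

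Tpi1, triosephosphate isomerase, which interconverts the 3-carbon sugars, held 358 and 253 CPM at day 0, 445 and 458 at day 12 and 998 and 852 after 12 days off. The rise at day 12 (edgeR log2 fold 0.56 ± 0.15, adjusted p = 0.0047) missed the threshold without day 0 replicate B (log2 fold 0.33, adjusted p = 0.085). The 3 pairs did not overlap, and the last was 3.03-fold above the first (edgeR log2 fold 1.60 ± 0.16, adjusted p = 2.2e-06).

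The next 3 enzymes turn glyceraldehyde 3-phosphate into 2-phosphoglycerate with the first gain of ATP. Pgk1, phosphoglycerate kinase, held 34.9 and 38.4 CPM at day 0, 30.6 and 31.6 at day 12, 79 and 60.7 at 4 days off, 106 and 102 at 8 and 144 and 136 at 12 days off. It rose 4.50-fold from day 12 (edgeR log2 fold 2.17 ± 0.12, adjusted p = 1.9e-09), while the difference of day 12 from day 0 did not pass the test (edgeR log2 fold -0.24 ± 0.12, adjusted p = 0.1). Pgam1, phosphoglycerate mutase, went from 36.4 and 35 CPM at day 12 to 86.9 and 77.6 after 12 days off and had held 29.7 and 27.3 at day 0 (edgeR log2 fold 1.53 ± 0.11, adjusted p = 2.1e-07 for 12 days off against day 0). Its higher value at day 12 than at day 0 (edgeR log2 fold 0.33 ± 0.11, adjusted p = 0.02) was no longer called without day 0 replicate B or either day 12 library (adjusted p = 0.11, 0.099 and 0.053). Gapdh fell from 39 and 35.6 CPM at day 0 to 18.6 and 14.4 at day 4, stood at 19.7 and 21.9 at day 12 and reached 51.2 and 41.1 after 12 days off. It was 1.79-fold lower at day 12 than at day 0 and 2.22-fold higher at 12 days off than at day 12 (edgeR log2 fold 1.15 ± 0.15, adjusted p = 9.2e-06), with libraries that did not overlap.

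These 3 levels are uncertain. At day 0 Gapdh had 30.3 RPKM (CPM divided by the gene's length in kilobases), Pgk1 20.3 and Pgam1 15.5, while the enzymes before and after them, Tpi1 and Eno1, had 191 and 134. Gapdh, Pgk1 and Pgam1 have near-identical processed copies in the mouse genome, and the sources used here do not state how reads that match several places were counted. The files also list Aldoart1 and Aldoart2, copies of Aldoa, and pseudogenes of Gapdh and Mpc1 as genes of their own. The reads counted to Gapdh, often used as a constant control, ranged from 14.4 to 51.2 CPM. Whether its RNA ranged as widely cannot be told from these counts.

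Enolase makes phosphoenolpyruvate, and its 2 genes parted on doxycycline. Eno1, the form of most tissues, held 249.6 and 225 CPM at day 0, 343 and 339 at day 12, 1027 and 981 at 8 days off and 1775 and 1247 at 12 days off, 6.36-fold above day 0 (edgeR log2 fold 2.67 ± 0.17, adjusted p = 5.9e-08). Every library after withdrawal exceeded every earlier one, and its smaller rise at day 12 (edgeR log2 fold 0.52 ± 0.16, adjusted p = 0.009) missed the threshold without day 0 replicate B (log2 fold 0.45, adjusted p = 0.075). Eno3, the muscle-type enolase, fell from 37 and 32.2 CPM at day 0 to 13 and 11.3 at day 4 and 9.48 and 10.1 at day 12, or 3.54-fold (edgeR log2 fold -1.82 ± 0.20, adjusted p = 1.8e-06). It came back to 40.1 and 27.5 after 12 days off, on both sides of its day 0 values (edgeR log2 fold -0.04 ± 0.19, adjusted p = 0.9). Eno3 per kilobase was 14.5% of the pair at day 0, 3.24% at day 12 and 2.54% after 12 days off. Eno1b, a copy of Eno1 that the files list on its own, went from 20.6 to 124 CPM (log2 fold 2.59 ± 0.15), and how reads were split between the copies is not known.

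Pkm, pyruvate kinase, which makes pyruvate and ATP, rose in 2 stages. It held 876 and 711 CPM at day 0, 1256 and 1250.4 at day 12 (edgeR log2 fold 0.66 ± 0.14, adjusted p = 0.00096), 2365 and 1820.4 at 4 days off and 3115 and 2672 at 12 days off (edgeR log2 fold 1.87 ± 0.15, adjusted p = 3.7e-07 against day 0). The pairs of day 0, day 12 and 12 days off did not overlap. The counts are per gene and do not tell the M1 and M2 splice forms apart.

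Genes of lactate production and export were highest after withdrawal. Ldha, the lactate dehydrogenase subunit that favours lactate, had the highest level per kilobase of the 38 genes at day 0. It held 899 and 713 CPM at day 0, 546 and 551 at day 4, 484 and 522 at day 8, 679.9 and 700.0 at day 12, 1693 and 1374 at 4 days off and 2975 and 2345 at 12 days off. The day 4 fall passed the test (edgeR log2 fold -0.55 ± 0.14, adjusted p = 0.0032), the day 12 difference did not (edgeR log2 fold -0.22 ± 0.14, adjusted p = 0.17), and 12 days off was 3.86-fold above day 12 and 3.30-fold above day 0 (edgeR log2 fold 1.72 ± 0.14, adjusted p = 5.9e-07). Slc16a3, which encodes the lactate exporter MCT4, held 211 and 171 CPM at day 0, 120.5 and 126 at day 8, 194 and 193 at day 12 and 665 and 632 after 12 days off. Day 0 and day 12 overlapped, and the last pair lay 3.39-fold above day 0 (edgeR log2 fold 1.76 ± 0.12, adjusted p = 1.6e-07). Slc16a1, which encodes the two-way carrier MCT1, fell from 95.2 and 142 CPM at day 0 to 56.6 and 54.9 at day 12 (edgeR log2 fold -1.09 ± 0.15, adjusted p = 1.9e-05) and rose to 179 and 184 after 12 days off (edgeR log2 fold 1.70 ± 0.15, adjusted p = 2.2e-07 against day 12). The day 0 replicates of Slc16a1 differed more than those of any other of its groups, yet both lay above day 12 and below 12 days off.

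Of the kinases that shut pyruvate dehydrogenase, Pdk1 and Pdk3 moved in opposite ways on doxycycline and after it, and both ended above day 0. Pdk1, a known target of the hypoxia-inducible factors, held 49.4 and 55.2 CPM at day 0, 26 and 28.8 at day 8, 38.1 and 35.3 at day 12, 152 and 108 at 4 days off and 159 and 205 at 12 days off. It was lower at day 12 than at day 0 (edgeR log2 fold -0.51 ± 0.15, adjusted p = 0.009), a call lost without day 0 replicate B or day 12 replicate B (adjusted p = 0.072 and 0.066). It had the largest rise of the 38 genes on withdrawal, 4.96-fold (edgeR log2 fold 2.31 ± 0.16, adjusted p = 1.2e-08). Pdk3 rose from 24.5 and 23.6 CPM at day 0 to 60.5 and 59.9 at day 12 (edgeR log2 fold 1.32 ± 0.11, adjusted p = 1.6e-07) and remained above its start at 48.4 and 42.3 after 12 days off (edgeR log2 fold 0.92 ± 0.11, adjusted p = 2e-05). Pdk2 was the lowest of the 3, between 2.56 and 6.32 CPM in all libraries, and higher at day 12 than at day 0 (edgeR log2 fold 0.73 ± 0.21, adjusted p = 0.0068), which was lost without day 0 replicate B (log2 fold 0.57, adjusted p = 0.064). Per kilobase Pdk1 made up 41% and 45.3% of the 3 kinases at day 0, 18.6% and 17.5% at day 12 and 54.4% and 63.6% after 12 days off, and Pdk3 made up most of the rest.

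**Figure D4:**
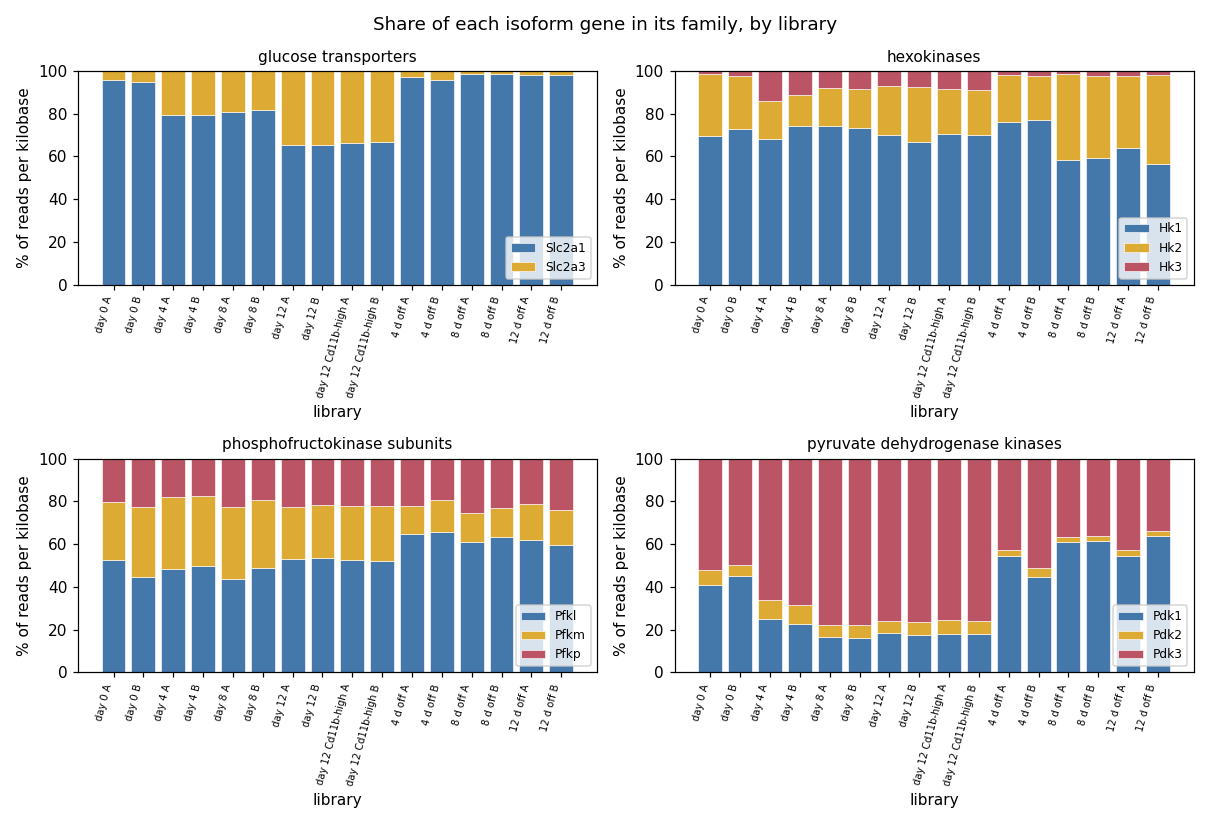
Share of each gene in the reads per kilobase of its family, in percent, for glucose transporters, hexokinases, phosphofructokinase subunits and pyruvate dehydrogenase kinases; each bar is 1 library. Slc2a3 is largest at day 12 (34.9% of the glucose transporter pair). Pdk1 exceeds Pdk3 in every library after withdrawal but replicate B of 4 days off.

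The subunits of the pyruvate dehydrogenase complex moved little. Pdha1, the alpha subunit of its first enzyme, held 78.1 to 111 CPM over the 16 libraries and was called in none of the 12 comparisons. Pdhb, the beta subunit, held 101 and 98.8 CPM at day 0, 87.1 and 87.5 at day 12 and 138 and 108 after 12 days off (edgeR log2 fold 0.30 ± 0.11, adjusted p = 0.038 for the last against the first), and this call was lost without either day 0 library (adjusted p = 0.10 and 0.13) or 12 days off replicate A (0.34). Dlat, the second enzyme of the complex, rose from 54.9 to 82.8 CPM at day 12 (edgeR log2 fold 0.59 ± 0.10, adjusted p = 0.00014) and stood at 87.3 after 12 days off.

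Of the pyruvate carrier, Mpc2 fell on doxycycline, from 32.1 and 38.4 CPM at day 0 to 17.1 and 16.3 at day 8 and 12.1 and 10.4 at day 12 (edgeR log2 fold -1.64 ± 0.22, adjusted p = 1.5e-05). After 12 days off it held 39.9 and 22.7 CPM, with both libraries above day 12 and 1 on either side of the day 0 pair (edgeR log2 fold 1.47 ± 0.22, adjusted p = 3.7e-05 against day 12). Its partner Mpc1 stayed between 21.8 and 34.2 CPM (edgeR log2 fold -0.34 ± 0.13, adjusted p = 0.037 for day 12 against day 0, with adjusted p between 0.093 and 0.20 without day 0 replicate B, day 12 replicate A or day 12 replicate B). The Mpc1 pseudogene Mpc1-ps had means of 41.2 CPM at day 0, 32.7 at day 12 and 39.5 after 12 days off. How reads were split between Mpc1 and this copy is not known. Mpc2 and Mpc1 are short genes, of 854 and 907 bases in the files, and short genes as a class moved in these libraries. Among the 1641 genes under 1000 bases the median log2 difference was -0.52 between day 12 and day 0 and 0.59 between 12 days off and day 12, while genes of 4000 bases and over gave 0.27 and -0.39. The 2 replicates of 12 days off differed the same way, with a median of 0.47 for A minus B among the short genes. The 3224 genes of 1000 to 2000 bases gave -0.24 for day 12 minus day 0, 0.26 for 12 days off minus day 12 and 0.28 for A minus B. Aldoa, Aldoc, Tpi1, Gapdh, Pgk1, Pgam1, Eno1, Eno3 and Ldha are in that class. Over the other scalings and the length correction, their lowest log2 folds from day 12 to 12 days off were 0.78 for Gapdh and 0.79 for Tpi1. With the trend along gene length taken out, an alternative chosen after seeing the data, Mpc2 kept its fall (-1.24) and its rise (0.92), and Mpc1 turned to 0.05 at day 12 against day 0 and to -0.50 on withdrawal.

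Of the 6 pentose phosphate genes 4 rose at day 12, 1 fell and 1 was not called. G6pdx, the rate-limiting dehydrogenase that makes NADPH, held 59.1 and 59.5 CPM at day 0, 97.5 and 117 at day 4, 124 and 117 at day 12 and 52.9 and 56.4 after 12 days off. The doxycycline libraries all lay above the rest (edgeR log2 fold 1.02 ± 0.11, adjusted p = 1.8e-06 for day 12 against day 0), and the fall on withdrawal was 2.20-fold (edgeR log2 fold -1.14 ± 0.11, adjusted p = 5.1e-07), to values under day 0 that did not pass the test (edgeR log2 fold -0.12 ± 0.11, adjusted p = 0.41). Pgls, the lactonase of the second step, did the reverse: it fell from 56.2 and 51.3 CPM to 18.9 and 17.9 at day 4 and 17.6 and 20 at day 12 (edgeR log2 fold -1.51 ± 0.17, adjusted p = 2.2e-06). After 12 days off Pgls held 71.6 and 44.2 CPM, above day 12 in both libraries (edgeR log2 fold 1.62 ± 0.17, adjusted p = 9.8e-07). Against day 0 it was not called (edgeR log2 fold 0.11 ± 0.16, adjusted p = 0.63). With 883 bases it is also a short gene, and with the length trend taken out its folds were -1.12 and 1.09 on the log2 scale. Pgd, the second NADPH-making enzyme, held 605 to 951 CPM and passed the test in none of the 3 main comparisons.

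On the non-oxidative arm, which makes and reshuffles ribose 5-phosphate, Tkt, transketolase, rose from 455 and 475 CPM at day 0 to 1119 and 1075 at day 12 (edgeR log2 fold 1.24 ± 0.13, adjusted p = 1.1e-06) and fell to 714 and 616 after 12 days off, still above day 0 in both libraries. Rpia, ribose 5-phosphate isomerase, went from 38.3 and 37.7 to 79.9 and 81.2 CPM (edgeR log2 fold 1.08 ± 0.12, adjusted p = 2.1e-06) and to 68.8 and 56.3 after 12 days off. The last fall (edgeR log2 fold -0.36 ± 0.12, adjusted p = 0.013) was lost without day 12 replicate B or 12 days off replicate B (adjusted p = 0.063 and 0.13). Taldo1, transaldolase, had means of 414, 591 and 416 CPM (edgeR log2 fold 0.51 ± 0.13, adjusted p = 0.0029 for day 12 against day 0), and its last pair, 485 and 346 CPM, spanned its day 0 values.

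RPKM values were also summed over the genes of a step, as a description with no test. Hexokinase summed to 66.1 and 62 RPKM at day 0, 138 and 138 at day 12 and 80.8 and 104 after 12 days off. Over the same 3 times glucose import went from 35.8 and 31.6 to 55.7 and 59.4 and 114 and 132. Phosphofructokinase moved from 70 and 70.6 at day 12 to 172 and 174, enolase from 199.6 and 198 to 1026 and 720.3 and lactate dehydrogenase from 352 and 363 to 1542 and 1215. The non-oxidative pentose phosphate arm was highest at day 12, with 868 and 833 against 501 and 481 at day 0. The PFKFB sum was lowest after 12 days off, with 21.8 and 24.8 against 41 and 36.8 at day 0.

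**Figure D5:**
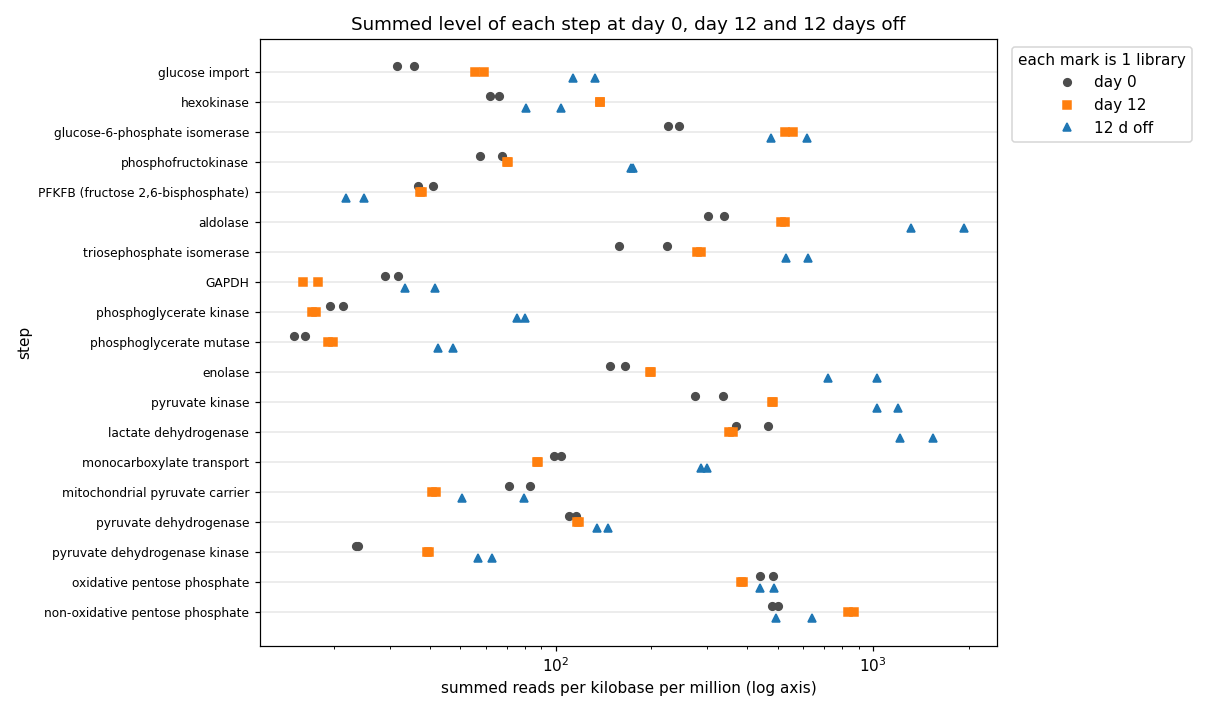
Summed RPKM (log axis) of the genes of each step, at day 0 (grey circles), day 12 (orange squares) and 12 days off (blue triangles); each mark is 1 library. From phosphofructokinase to monocarboxylate transport the blue triangles lie to the right of the other marks at every step but PFKFB, while hexokinase and the non-oxidative pentose phosphate arm are furthest right at day 12.

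Differences from day 0 were already present at day 4. At day 4, 14 of the 38 genes were higher and 9 lower than at day 0, against 28.2% and 31.0% of all genes, and at day 8 the numbers were 11 and 14, against 27.0% and 30.2%. Without replicate A of day 8, fewer of the 38 genes were lower at day 8, and fewer of all genes were called. A dip at day 8 showed in Slc2a3, Aldoc, Slc16a3 and Pfkl. In a comparison added after seeing the data, 2 genes were higher and 8 lower at day 8 than at day 4, against 6.78% and 7.16% of all genes. The 8 were Slc2a3, Hk3, Pfkl, Pfkm, Pfkfb4, Aldoc, Slc16a3 and Mpc2, and the 2 were Gapdh and Pdk3. Leaving out any single library of day 4 or day 8 left fewer members lower and fewer of all genes called. From day 8 to day 12, also added, 8 rose and 0 fell, against 1.82% and 0.425% of all genes: Slc2a3, Hk2, Pfkl, Pfkp, Aldoc, Slc16a3, G6pdx and Rpia. DESeq2 also called 0 falls, and 2 were lower at an unadjusted p under 0.05. Fewer members were higher, and fewer of all genes called, when any single library of day 8 or day 12 was left out. Without day 8 replicate A, Aldoc missed the threshold (log2 fold 1.05, edgeR adjusted p = 0.11), and Mpc2 missed it between day 4 and day 8 without day 4 replicate A or day 8 replicate B.

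Differences from day 12 were already present 4 days after withdrawal. At 4 days off, 20 of the 38 genes were higher and 8 lower than at day 12, against 18.0% and 18.8% of all genes. Without replicate A of 4 days off, fewer of the 38 genes and fewer of all genes were called. Pdk1 was already 3.54-fold higher (edgeR log2 fold 1.82 ± 0.15, adjusted p = 6.9e-07), Pfkl 2.72-fold and Slc16a3 2.44-fold, and Slc2a3 7.04-fold lower (edgeR log2 fold -2.82 ± 0.12, adjusted p = 7.4e-10). At 8 days off 21 were higher and 11 lower than at day 12, against 28.7% and 27.2% of all genes. Scaled by library size alone, 3480 of all genes were higher and 1906 lower at 4 days off than at day 12, against 2459 and 2570 in the main fit, and 4929 and 2916 at 8 days off, against 3916 and 3712. Some genes stood near a plateau from 4 or 8 days on, such as Pfkl with means of 380.4, 384 and 393 CPM and Slc2a1 with 214, 326 and 309.7. Others were higher at each later time, such as Eno1 with 638, 1004 and 1511, Pgk1 with 69.8, 104 and 139.8, and Aldoa with 1339, 1667 and 2707. Against day 0, 22 were higher and 5 lower at 4 days off (18.8% and 19.1% of all genes), and 23 and 4 at 8 days off (16.2% and 16.9%). Fewer members were lower at 4 days off, and fewer of all genes called, without day 0 replicate A or either 4-day library. The same held at 8 days off without day 0 replicate B or replicate B of 8 days off.

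No pathway gene was called between Cd11b-high and total cells of day 12. In edgeR, 0 of the 38 genes were higher and 0 lower, against 0.00% and 0.0146% of all genes, 0 passed at an unadjusted p under 0.05, and DESeq2 and limma-voom called 0. The folds ran from -0.21 on the log2 scale for Rpia (± 0.12) to 0.28 for Hk3 (± 0.14), which held 39.2 and 40.9 CPM in Cd11b-high cells and 31.9 and 34 in total cells. With only these 4 libraries fitted, Hk3 was called higher and Rpia lower (adjusted p = 0.042 and 0.034). A test that passes no gene does not show that the levels are equal.

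Genes beside the pathway were taken from lists written from textbook knowledge. The closest is a set of 23 hypoxia-response genes outside metabolism. At 12 days off, 22 of them were higher than at day 0 and 0 lower (median log2 fold 1.53, against 0.00 for all genes), with 0 lower also at an unadjusted p under 0.05. At day 12 on doxycycline 7 were higher and 6 lower than at day 0 (median 0.12, against -0.07). Of all genes 30.0% were higher and 33.4% lower at day 12, and 21.6% and 22.0% at 12 days off against day 0. Egln3, an oxygen-sensing prolyl hydroxylase that the hypoxia-inducible factors induce, held 56 and 53.6 CPM at day 0, 55.7 and 56.3 at day 12 and 409 and 412 after 12 days off (edgeR log2 fold 2.90 ± 0.18, adjusted p = 5.4e-08 against day 0). Its relative Egln1 went from 41.1 to 204 CPM (edgeR log2 fold 2.31 ± 0.15, adjusted p = 9.4e-08), and P4ha1, a collagen prolyl hydroxylase subunit, from 89.5 to 434 (edgeR log2 fold 2.28 ± 0.15, adjusted p = 9.4e-08). Hif1a, which encodes the oxygen-regulated subunit of the factor and was chosen after its values were seen, held 202 CPM at day 0, 440.1 at day 12 and 218 after 12 days off (edgeR log2 fold 0.11 ± 0.14, adjusted p = 0.54 for the last against the first).

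Among 16 regulators of glycolysis genes 9 were higher and 4 lower at day 12 than at day 0 (30.0% and 33.4% of all genes). At 12 days off 6 were higher and 2 lower than at day 0 (21.6% and 22.0% of all genes, with median log2 folds of 0.40 and 0.19). Spi1, whose product doxycycline restores, is on this list and among the 9 higher at day 12, a place that followed from the design. Mlxipl, the glucose-sensing factor ChREBP, fell from 55.3 and 60.7 CPM at day 0 to 7.93 and 7.59 at day 12 (edgeR log2 fold -2.90 ± 0.20, adjusted p = 2e-08) and held 16.3 and 23.6 after 12 days off. Epas1, which encodes HIF-2 alpha, rose from a mean of 0.382 to 5.70 CPM (edgeR log2 fold 3.80 ± 0.35, adjusted p = 3.4e-07) and stayed low in level. Trp53, which encodes p53, was at 89.1, 51.9 and 202 CPM at the 3 times (edgeR log2 fold 1.18 ± 0.15, adjusted p = 2.4e-05 for the last against the first), and Max, the partner of MYC, at 41.6, 65.2 and 72.6. Myc, chosen after its values were seen, held 339 CPM at day 0, 93.5 at day 4, 183 at day 12 and 455 after 12 days off (edgeR log2 fold 0.43 ± 0.09, adjusted p = 0.0019 for the last against the first).

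The serine branch, which leaves glycolysis at 3-phosphoglycerate, fell on doxycycline and came back. Of its 7 genes 6 were lower and 0 higher at day 12 than at day 0 (33.4% and 30.0% of all genes), with 0 higher also at an unadjusted p under 0.05. From day 12 to 12 days off 6 rose and 0 fell (32.9% and 32.4% of all genes; median log2 folds -0.81 and 0.98). Psat1, its transaminase, held 557 and 713 CPM at day 0, 100.3 and 99.3 at day 4, 140.2 and 145 at day 12 and 581 and 555 after 12 days off (edgeR log2 fold -2.15 ± 0.12, adjusted p = 2.1e-09 for day 12 against day 0). Phgdh, its first enzyme, went from 78.1 to 18.3 CPM and back to 98.8 (edgeR log2 fold 2.43 ± 0.16, adjusted p = 1.2e-08 on withdrawal). The folate enzymes Shmt1 and Mthfd1l ended above day 0 (log2 fold 0.48 ± 0.12 and log2 fold 0.48 ± 0.14), and Psph, the phosphatase of the branch, below it (edgeR log2 fold -0.64 ± 0.15, adjusted p = 0.0025).

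Of 13 glycogen genes 7 were higher and 3 lower at day 12 than at day 0 (30.0% and 33.4% of all genes; median log2 fold 0.36). Pygl, liver-type glycogen phosphorylase, rose from 59.3 to 202 CPM (edgeR log2 fold 1.77 ± 0.14, adjusted p = 7.4e-08) and held 169 after 12 days off, Pygb rose from 19.3 to 50.8, and Ugp2, which makes UDP-glucose, from 90.8 to 178. At 12 days off 5 were higher and 4 lower than at day 0 (21.6% and 22.0% of all genes; median 0.42). Those higher include Ppp1r3b, a targeting subunit of the glycogen phosphatase, from 16.5 to 66.2 CPM (edgeR adjusted p = 6.2e-07), and the branching enzyme gene Gbe1 (log2 fold 1.05 ± 0.13).

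The citric acid cycle burns the acetyl groups that pyruvate dehydrogenase makes. Of its 20 genes 6 were higher and 7 lower at day 12 than at day 0, shares near the 30.0% and 33.4% of all genes. At 12 days off 8 were higher and 1 lower than at day 0 (21.6% and 22.0% of all genes), with 0 at least 2-fold apart (median log2 folds -0.14 and 0.18). Cs, citrate synthase, went from 217 to 368 and 238 CPM, Sdha, a subunit of succinate dehydrogenase, from 99.6 to 181 and 163, and Fh1, fumarase, from 89 to 40 and 92.6 (edgeR log2 fold -1.15 ± 0.13, adjusted p = 1.9e-06 for day 12 against day 0). Idh2 and Aco1 were higher at 12 days off than at day 0 (log2 fold 0.72 ± 0.12 and log2 fold 0.63 ± 0.15).

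A last list held 36 other genes of sugar breakdown in the files that are not among the 38. At day 12, 15 were higher and 11 lower than at day 0 (30.0% and 33.4% of all genes), and at 12 days off 12 were higher and 9 lower than at day 0 (21.6% and 22.0%; median log2 folds 0.11 and 0.24). Bsg, basigin, the chaperone that brings MCT1 and MCT4 to the cell surface, held 859 and 833 CPM at day 0, 1166 and 1135 at day 12 and 4064 and 3160.0 after 12 days off (edgeR log2 fold 2.09 ± 0.15, adjusted p = 1.8e-07 against day 0). Pgm1, a phosphoglucomutase, was higher at 12 days off (edgeR log2 fold 1.48 ± 0.13, adjusted p = 1.1e-06). Eno2, the neuronal enolase, went from 15.9 CPM at day 0 to 1.31 at day 12 and 16.6 after 12 days off (edgeR log2 fold -3.59 ± 0.35, adjusted p = 5.1e-07 for day 12 against day 0). Pgm2l1 and Slc2a9, a urate and sugar carrier, were higher at day 12 (log2 fold 1.86 ± 0.17 and log2 fold 1.31 ± 0.13).

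Some limits hold for all of these values. Of the 38 genes, 10 overlap another gene of the files in the genome (Hk1, Hk3, Pfkm, Pfkp, Pfkfb2, Tpi1, Eno3, Slc16a3, Pdha1 and G6pdx), and no source used here states whether counting used strand, so reads of the partners may be mixed. In the 10 planned comparisons, no gene called at 2-fold or more lost its call under any alternative setting, leaving out single libraries included. The size of some folds did drop under 2 with another scaling, replicate block, gene set or length correction. For day 12 against day 0 the lowest log2 folds were 0.87 for Hk1, 0.83 for Pfkfb3, 0.88 for G6pdx and 0.95 for Rpia. For 12 days off against day 12 they were 0.79 for Tpi1, 0.78 for Gapdh and 0.92 for Mpc2.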

How the data were processed

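The deposited files hold counts: whole-number reads per Entrez gene and library (16 RNA-seq libraries), beside gene lengths, per the file headers. Total RNA of sorted cells was sequenced on an Illumina NextSeq500, per the labels' protocols. The submitters' processing notes name featureCounts, edgeR, limma and the mm10 genome, with no version. No source used here names the aligner. Symbols came from a GRCm38.p6 gene table through the Entrez numbers, for 13216 of 13652 genes.

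Counts were scaled with TMM and fitted with 1 mean per group over all 16 libraries by the quasi-likelihood test of edgeR 4.0.16 (robust, two-sided; limma 3.58.1, R 4.3.3), with 8 residual degrees of freedom and a biological coefficient of variation of 10.9%. The filter on low counts removed 0 genes. P-values were adjusted by Benjamini-Hochberg over all 13652 genes in each of 10 planned and 2 added comparisons, and a gene was called at an adjusted p under 0.05. The script was tested on simulated data. CPM use TMM-scaled library sizes, and genes were compared with each other only per kilobase. Alternatives were DESeq2 1.42.0, limma-voom, RLE and library-size scaling, other filters, no mitochondrial genes, a fit of the 4 libraries compared alone, leaving out single libraries, a replicate block and removal of the trend along gene length (added after seeing the data).

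The members, lists and tests were chosen with earlier results of these data known. Every member is named, with each library of the groups concerned where it was called at 2-fold or more without overlap in a main comparison, and up to 3 genes with the lowest adjusted p are named from each other list and comparison.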

Additional observations from a re-analysis of the deposited data

How the results depend on the processing

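Over 6384 refitted values of the 38 genes in 12 comparisons, sign changes were counted only where the main or refitted value was called. Of these values 6054 kept their side of the threshold, 213 lost the call, 113 gained one and 4 changed sign. Of the last, Mpc1 went to 0.048 (day 12 against day 0) and -0.50 (12 days off against day 12) on the log2 scale with the trend along gene length removed, and Pgls and Taldo1 to -0.28 and -0.26 (12 days off against day 0) without replicate A of 12 days off, against 0.49 and 0.31 without replicate B. Counts that moved by more than 1.5 times were few outside the leaving out of libraries. With library size alone, 13 members were lower at day 12 than at day 0 and 5 higher at day 12 than at day 8. Of all genes 5401 were lower in the first comparison and 168 higher in the second, against 4559 and 248 in the main fit. With only the 4 libraries compared, 1 member was higher and 1 lower in Cd11b-high cells, and 20 higher and 4 lower at day 12 than at day 8. In the same setting 7 were lower at 12 days off than at day 12. Against day 0, 3 were lower at 4 days off and 1 at 12 days off. Of all genes this setting called 313, 3402, 6001, 5455 and 2160 in these 5 comparisons. The main fit, in which no gene was filtered out, called 2, 306, 8917, 5171 and 5950. With RLE factors or without mitochondrial genes, 3 were lower at 4 days off than at day 0. In that comparison 2340 of all genes were lower with RLE factors, against 2602 in the main fit. Without mitochondrial genes 5076 of all genes were called in it, against 5171. The cause was not tested.

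Leaving out 1 library at a time gave 9 to 12 lower at day 8 than at day 0, 12 to 20 higher and 5 to 7 lower at 4 days off than at day 12, 2 to 4 lower at 4 days off, 1 to 3 at 8 days off and 2 to 6 at 12 days off than at day 0. It gave 1 to 2 higher and 2 to 5 lower at day 8 than at day 4, and 1 to 4 higher at day 12 than at day 8. The number of all genes called fell as well in most of these fits. A group left with 1 library is assumed to vary like the others.

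Nothing in the labels ties an A or B of 1 group to that of another. The A minus B differences of 2 groups correlated across genes by over 0.1 in 9 of 28 pairs of groups and by under -0.1 in 1 (median 0.027, highest 0.37), which does not meet the rule that every pair exceeds 0.1, so the letters were not taken to pair the libraries. With a replicate block 19 members were higher and 8 lower at day 12 than at day 0, 20 and 11 at 12 days off than at day 12 and 24 and 2 at 12 days off than at day 0, as without it, and 3 of 456 values of single members gained a call.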
